A study of Homo sapiens with 2 samples.

Results

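NeuroD1 binding at the genes of voltage-gated calcium and sodium channels was examined in the MYCN-amplified neuroblastoma line IMR-32. The genes were chosen by symbol: all protein-coding RefSeq genes that start with CACNA, CACNB or CACNG, or with SCN and a number. This gave 40 genes of the 20037 protein-coding genes on the chromosomes, with 26 calcium channel genes and 14 sodium channel genes. The series holds 1 ChIPseq library of unmodified (WT) IMR-32 cells, made with a NeuroD1 antibody, and 1 input library, which was not analysed here. ChIPseq enriches the DNA that a protein occupies with an antibody against it, and peaks are the stretches where sequenced reads exceed the background. The labels name a NeuroD1 antibody, whereas the supplementary ChIPseq methods of the study name an H3K27Ac antibody. The list was used as labelled. Expression was not measured in this series, so the cell line could not be checked against its marker genes.

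The peak list held 6183 peaks, with a median fold enrichment of 6.79 (the ChIP pileup at the summit over the local background, 1 added to each), and the depth of the library is unknown. The quartiles were 5.79 and 8.68. Solving each peak's enrichment and −log10 p for its read number gave a median of 17 ChIP reads at the summit (8 to 272). There was no replicate, so no difference could be tested against a spread between samples. Intervals given for read numbers and for shares of genes reflect counting error alone.

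Voltage-gated calcium channels open on depolarization and let calcium into the cell, where it triggers transmitter release, hormone secretion and changes in transcription. Their pore is formed by an alpha1 subunit (CACNA1 genes), which is accompanied by an extracellular alpha2delta subunit (CACNA2D genes) and a cytosolic beta subunit (CACNB genes). Some of the gamma genes (CACNG) encode a subunit of the muscle channel or its relatives, and others encode TARPs, which accompany AMPA-type glutamate receptors. Voltage-gated sodium channels carry the upstroke of the action potential, with a pore-forming alpha subunit (SCN genes ending in A) and single-pass beta subunits (SCN genes ending in B). Both families belong to the excitable phenotype of neurons and chromaffin cells, the lineage to which neuroblastoma is related. NeuroD1 is a bHLH transcription factor that promotes neuronal and endocrine differentiation and binds E-boxes, which have the core CANNTG.

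A NeuroD1 peak lay in the gene, or up to 3 kb from either end, at 8 of the 40 channel genes (20%, 95% exact Clopper-Pearson interval 9.05% to 35.6%). Over all protein-coding genes the share was 21.4%. The 8 genes were CACNA1B, CACNA1C, CACNA1D, CACNA1G, CACNA2D1, CACNB3, CACNG4 and SCN2B. The peaks in them numbered 13, each with at least part of it inside the gene itself, and 4 of the genes (CACNA1C, CACNA1G, CACNA2D1 and CACNB3) held more than 1. Of the 13 peaks, 12 lay at calcium channel genes and 1 at a sodium channel gene. All 10 genes of sodium channel alpha subunits were without a peak.

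Channel genes are long, with a median of 111 kb against 24.1 kb for protein-coding genes, and long genes held a peak more often. When the protein-coding genes were divided by length into 10 classes of equal number, the share with a peak was 8.88% in the shortest class and 36.2% in the longest, which begins at 152 kb. Genes of the same length classes as the 40 channel genes would give 11.3 genes with a peak (28.2%) and 16.5 peaks. The observed share lay below this value, and its interval (9.05% to 35.6%) includes it. The longest class held 14 channel genes, of which 4 had a peak (28.6%). In the class from 83.5 to 152 kb none of 9 channel genes had a peak, against 27.8% of all genes in that class. From 10.8 to 16.3 kb, 2 of 3 channel genes had a peak (CACNB3 and SCN2B), against 17.6%.

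By subunit, a peak was found at 2 of 4 L-type pore genes, where genes of like length would give 1.20. It was found at 1 of 3 P/Q-, N- and R-type pore genes (1.09 from length) and at 1 of 3 T-type pore genes (0.768 from length). The alpha2delta genes had 1 of 4 (1.28 from length) and the beta genes 1 of 4 (1.13 from length). The gamma genes had 1 of 8, against 1.87 from length. For the sodium channels, the alpha genes had 0 of 10 (95% exact Clopper-Pearson interval 0% to 30.8%) against 3.15 from length (31.5%), and the beta genes 1 of 4 against 0.78. The value from length lay just above the upper limit of the interval for the alpha genes. As a whole, 7 of 26 calcium channel genes had a peak (26.9%, interval 11.6% to 47.8%, with 28.2% from length). The share was 1 of 14 for the sodium channel genes (7.14%, interval 0.181% to 33.9%, with 28.1% from length). The intervals treat genes as separate draws, although 5 of the sodium channel alpha genes lie in a cluster on chromosome 2. A further 3 of them lie in a cluster on chromosome 3. The difference between the calcium and the sodium channel genes was not tested.

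The peaks at channel genes were of ordinary height. Their median fold enrichment was 7.23 (range 4.41 to 12.8), against 6.79 for the 4568 peaks at protein-coding genes. The 95% interval of the channel median, from the ranked peaks, was 5.69 to 8.17. It treats the 13 peaks as separate draws, although 4 genes held more than 1 of them and all come from 1 library. Of the 13 peaks, 2 lay above the upper quartile of the whole list (8.68) and 3 below its lower quartile (5.79), and none reached the 95th percentile (13.8). The summits were covered by a median of 15 ChIP reads (range 11 to 32), against 16 at protein-coding genes. The implied local background at the 13 summits was between 1.04, the lowest of the list, and 2.48. It was 1.04 at 5 of the 13, or 38.5%, against 33.8% of all peaks. The highest background in the list was 98.0.

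**Figure D1:**
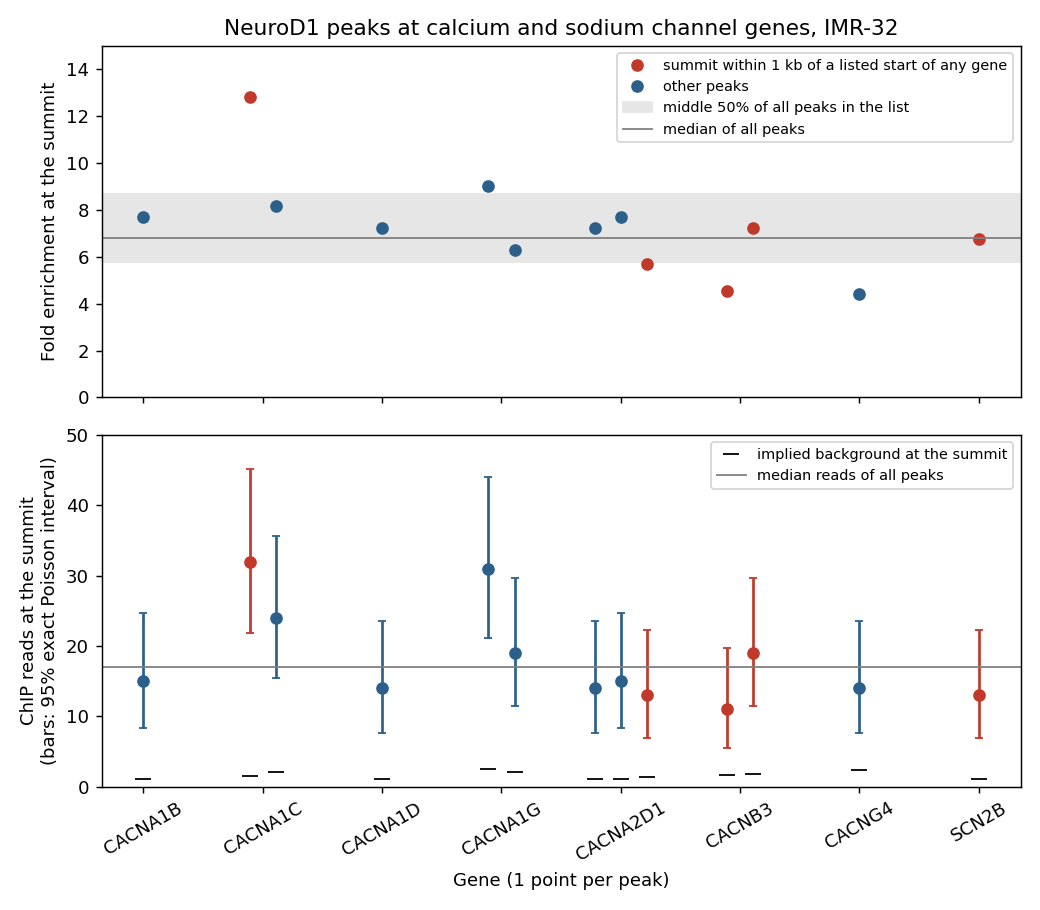
Fold enrichment (upper panel) and ChIP reads with 95% exact Poisson intervals (lower panel) at the summit of each of the 13 peaks, by gene, with red points for summits within 1 kb of a listed start of any gene and black dashes for the implied background. The highest value is the CACNA1C peak of 12.8-fold, which lies beside the start of DCP1B, and the lowest are the CACNG4 peak (4.41) and a CACNB3 peak (4.52).

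CACNA1C, which encodes the pore of the L-type channel of heart, smooth muscle and neurons, held the highest peak of the group. The gene spans 1970780 to 2697950 on chromosome 12 (GRCh38, as are all positions given here, counted from 1). The peak from 2004361 to 2004694 was enriched 12.8-fold at a −log10 q of 25.3, with 32 ChIP reads (95% exact Poisson limits 21.9 and 45.2, given in the same way for the other peaks) over an implied background of 1.53. It ranked 407 of 6183 by fold enrichment. This peak also overlapped DCP1B, which encodes an mRNA decapping factor, and its summit lay 115 bp upstream of the DCP1B start at 2004457. The RefSeq gene, on the forward strand, begins at 1970780, which is 33.8 kb upstream of the summit. The only CACNA1C start in the list of starts used here (2052987) was 48.4 kb downstream of the summit. The second peak, from 2489338 to 2489646, lay deep in the gene. Its summit was 437 kb downstream of that listed start and 519 kb downstream of the beginning of the RefSeq gene. It was enriched 8.17-fold at a −log10 q of 13.1, with 24 reads (15.4 to 35.7) over a background of 2.0.

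CACNA1D, which encodes another L-type pore, known from pacemaking and neuroendocrine cells, held 1 peak near its 3′ end. The gene spans 53494611 to 53813733 on chromosome 3, and the peak lay from 53796351 to 53796499. It was enriched 7.23-fold (−log10 q 7.26), with 14 reads (7.65 to 23.5) over a background of 1.04. The summit was 302 kb downstream of the gene start and 17.3 kb from the other end. No peak was called at the start of CACNA1D.

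CACNA1B encodes the pore of the N-type channel, which triggers transmitter release at synapses. In this gene, which spans 137877782 to 138124619 on chromosome 9, the single peak lay from 138010278 to 138010548, near the middle. It was enriched 7.71-fold (−log10 q 8.34), with 15 reads (8.40 to 24.7) over a background of 1.04. The summit was 133 kb downstream of the start.

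CACNA1G encodes a T-type pore, which opens at low voltages and takes part in burst firing. The gene spans 50560715 to 50627474 on chromosome 17 and held a pair of peaks whose summits were 4032 bp apart. The stronger, from 50604468 to 50604949, was the widest of the group (482 bp against a median of 211 bp). It was enriched 9.01-fold at a −log10 q of 18.2, with 31 reads (21.1 to 44.0) over a background of 2.48, the highest background among the channel peaks. The weaker, from 50608747 to 50608957, was enriched 6.27-fold at a −log10 q of 7.80, with 19 reads (11.4 to 29.7) over 2.13. The read intervals of the pair overlap. Both summits lay inside the gene, at 44.1 and 48.1 kb from its lower-coordinate end.

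Among the auxiliary subunits, CACNA2D1 held the most peaks of any channel gene, with 3. It encodes alpha2delta-1, the binding site of the drug gabapentin, and spans 81946444 to 82443956 on chromosome 7, on the reverse strand. The peak at its start, from 82443825 to 82443982, was enriched 5.69-fold at a −log10 q of 4.76, with 13 reads (6.92 to 22.2) over a background of 1.42. Its summit lay 63 bp downstream of the start. The other peaks were inside the gene. The one from 82319860 to 82320163, 124 kb downstream of the start, was enriched 7.71-fold with 15 reads (8.40 to 24.7). The one from 82264998 to 82265215, 179 kb downstream, was enriched 7.23-fold with 14 reads (7.65 to 23.5). The read intervals of all 3 peaks overlap, so their order by read number is within counting error.

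CACNB3 encodes a beta subunit, which binds the pore-forming subunit in the cytosol and aids its transport to the membrane. The gene is short (14.5 kb, from 48814480 to 48828941 on chromosome 12) and is the only channel gene with a peak beside more than 1 of its own listed starts. The peak from 48814697 to 48814842 had its summit 298 bp downstream of the outermost start. It was enriched 4.52-fold (−log10 q 2.57), with 11 reads (5.49 to 19.7) over a background of 1.61, which made it rank 5816 of 6183. This peak also overlapped the lncRNA gene LOC101927241. The peak from 48818641 to 48818841 had its summit 207 bp downstream of an inner start at 48818496. It was enriched 7.21-fold (−log10 q 9.29), with 19 reads (11.4 to 29.7) over 1.72. The summits were 3925 bp apart.

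CACNG4 encodes a TARP. Its peak, the lowest of the group, lay from 66965515 to 66965664 on chromosome 17, and was enriched 4.41-fold at a −log10 q of 3.27. There were 14 reads at the summit (7.65 to 23.5) over a background of 2.34. The summit lay 869 bp inside the lower-coordinate end of the gene, which spans 66964707 to 67033398. No start of CACNG4 was among those listed.

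SCN2B, which encodes a single-pass beta subunit with an immunoglobulin-like domain, was the only sodium channel gene with a peak. The gene spans 118162806 to 118176639 on chromosome 11, on the reverse strand. The peak from 118176583 to 118176756 covered its start, with the summit 24 bp upstream. It was enriched 6.75-fold (−log10 q 6.22), with 13 reads (6.92 to 22.2) over a background of 1.04.

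**Figure D2:**
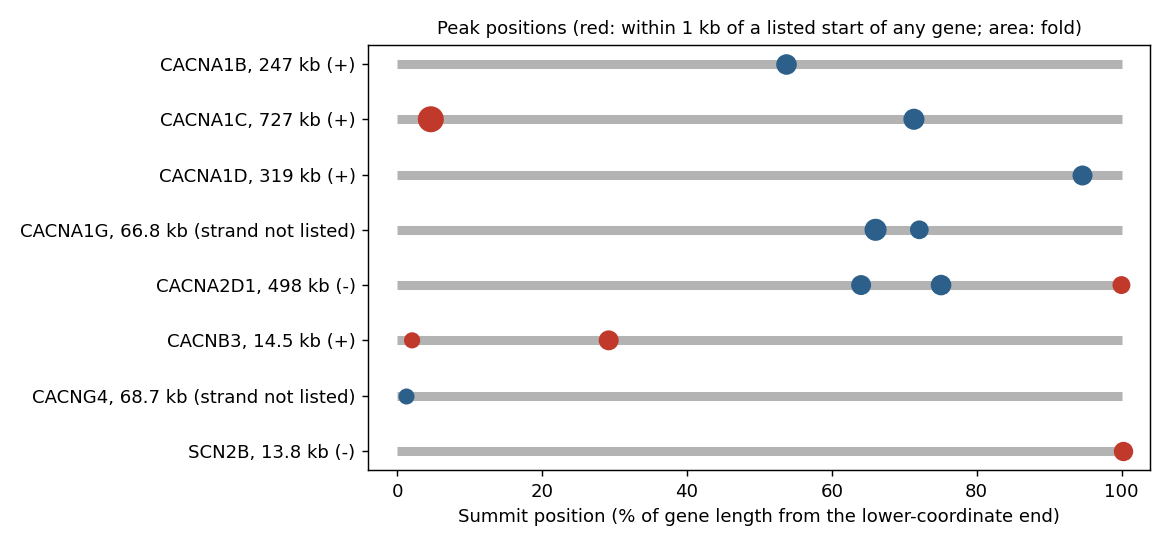
Position of the 13 summits along the 8 channel genes with a peak, as percent of gene length from the lower-coordinate end (x axis), with gene length and strand beside each name, red for summits within 1 kb of a listed start of any gene, and the area of a point proportional to fold enrichment. Peaks at the own start are seen in CACNA2D1 (right end, reverse strand), CACNB3 (left, forward strand) and SCN2B (right end, reverse strand), and the red point of CACNA1C lies beside the start of DCP1B.

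The list of starts used here held a start for 26 of the 40 channel genes, although RefSeq gives both ends of all 40. Starts of the other 14 could not be assessed. A summit lay within 3 kb of an own start at 3 of these 26 (11.5%), namely CACNA2D1, CACNB3 and SCN2B, against 16.5% of the protein-coding genes with a listed start. Counted over peaks, 5 of the 13 channel summits (38.5%) were within 1 kb of a listed start of any gene, which includes the peak beside DCP1B. Of all peaks at protein-coding genes, 54.3% were. Neither of these start shares was matched for gene length. The 4 peaks at an own start had fold enrichments of 4.52, 5.69, 6.75 and 7.21. Over the whole list, summits within 1 kb of a listed start had a median of 6.87 and other summits a median of 6.78. All 4 own-start peaks except that of the inner CACNB3 start thus lay below the median of start peaks. The 8 channel peaks away from listed starts ranged from 4.41 to 9.01. The lowest of them, at CACNG4, lay 869 bp inside 1 end of a gene that has no listed start. Whether it is a peak at the start could therefore not be told.

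The 250 bases before 4 of the 5 listed starts within 1 kb of an own-gene summit are printed here, since they show what lies under or next to the summits. The sequences are from RefSeq (GRCh38.p14), read in the direction of the gene from 5′ to 3′, and end at the base before the start. Capitals mark each CANNTG, which reads the same on both strands.
SCN2B, chr11:118176640-118176889, reverse strand: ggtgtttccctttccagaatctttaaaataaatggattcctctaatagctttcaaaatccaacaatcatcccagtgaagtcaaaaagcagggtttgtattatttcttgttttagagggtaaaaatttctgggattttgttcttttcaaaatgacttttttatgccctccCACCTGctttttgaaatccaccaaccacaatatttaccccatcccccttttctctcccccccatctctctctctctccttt
CACNA2D1, chr7:82443957-82444206, reverse strand: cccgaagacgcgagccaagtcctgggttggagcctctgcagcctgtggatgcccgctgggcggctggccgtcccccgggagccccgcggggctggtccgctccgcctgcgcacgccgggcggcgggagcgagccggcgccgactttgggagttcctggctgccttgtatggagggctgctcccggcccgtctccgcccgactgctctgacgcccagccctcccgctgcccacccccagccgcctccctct
CACNB3, outermost start, chr12:48814230-48814479, forward strand: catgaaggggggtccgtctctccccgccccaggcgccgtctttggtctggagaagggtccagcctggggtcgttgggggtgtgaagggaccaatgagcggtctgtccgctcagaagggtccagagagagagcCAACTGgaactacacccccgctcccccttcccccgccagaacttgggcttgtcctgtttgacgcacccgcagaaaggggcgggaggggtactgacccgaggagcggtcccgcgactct
CACNB3, inner start, chr12:48818246-48818495, forward strand: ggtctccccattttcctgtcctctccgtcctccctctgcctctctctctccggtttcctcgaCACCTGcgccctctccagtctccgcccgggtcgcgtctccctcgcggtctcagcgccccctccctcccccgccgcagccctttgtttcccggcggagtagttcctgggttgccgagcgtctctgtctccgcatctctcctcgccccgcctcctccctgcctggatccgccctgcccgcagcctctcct

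The SCN2B window held 1 such match, CACCTG, which begins 81 bases before the start and whose middle lies 53 bp from the summit. It was inside the peak, which covered 117 of the 250 bases. The CACNA2D1 window held none, and 26 of its bases were inside the peak, whose larger part lay downstream of the start. Each of the printed CACNB3 windows held 1 match, at the outermost start CAACTG and at the inner start CACCTG. Neither window overlapped a peak, and the middle of the match was 412 and 391 bp from the summit. A further CACNB3 start, at 48815574, lay within 1 kb of the summit of the outer peak, and its window (chr12:48815324-48815573, not printed) held no match and overlapped no peak. On either strand, none of the 5 windows held CAGATG. The palindrome CAGCTG was absent as well, and so was CACGTG. Each of these is a form of CANNTG. Of 22078 such windows at protein-coding genes, 58.1% held CANNTG, 10.2% the form CAGATG, 13.7% the form CAGCTG and 7.35% the form CACGTG. Of the 1862 windows that held a summit, the shares were 49.7%, 7.52%, 14.4% and 9.29% in the same order. Among the 5 channel windows, only that of SCN2B held a summit. The bases under the peaks inside the genes were not examined here.

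The windows also differed in base composition, a comparison chosen after the values were seen. The G and C content was 75.6% at CACNA2D1, 65.6%, 65.2% and 68.8% at the CACNB3 starts in order of position, and 38.0% at SCN2B. The median over all windows was 62.0%, and over the 1862 windows that held a summit it was 68.0%. Of the channel windows, only that of SCN2B belongs to the latter. A content of 38.0% or less was found in 6.03% of all windows and in 0.107% of the windows with a summit, that of SCN2B included.

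The other 32 channel genes had no peak within 3 kb. The pore genes without a peak were CACNA1A, CACNA1E, CACNA1F, CACNA1H, CACNA1I and CACNA1S. Among the auxiliary subunits they were CACNA2D2, CACNA2D3, CACNA2D4, CACNB1, CACNB2, CACNB4, and CACNG1, CACNG2, CACNG3, CACNG5, CACNG6, CACNG7 and CACNG8. The sodium channel genes without a peak included SCN1A, SCN2A, SCN3A, SCN4A, SCN7A, SCN8A, SCN9A, SCN10A, SCN11A, SCN3B and SCN4B. The nearest peak was 4.22 to 3690 kb away, with a median of 86.4 kb, against 168 kb for all protein-coding genes without a peak. Within 25 kb of the gene there was a peak for 5 of the 32, and within 100 kb for 20. CACNA1F, on chromosome X, lay farthest from a peak.

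Of these genes, CACNB4, which encodes a brain beta subunit, lay closest to a peak. That peak, 4.22 kb from the gene, was enriched 8.20-fold with 16 reads. The peak nearest to CACNA2D2 was 11.8 kb away, from 50516063 to 50516549 on chromosome 3. It was enriched 7.52-fold and overlapped no gene. For CACNA1E, which encodes the R-type pore, the nearest peak was strong (18.9-fold, 52 reads) but lay 189 kb away.

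CACNA1S, which encodes the L-type pore of skeletal muscle, was 22.0 kb from a peak in KIF21B (5.27-fold). CACNA1F encodes the L-type pore of photoreceptors. The T-type pore gene CACNA1I was 37.7 kb from its nearest peak. Among the beta subunits of sodium channels, SCN3B was 278 kb from its nearest peak. SCN4A, the alpha subunit of skeletal muscle, was 36.2 kb from a peak. SCN9A and SCN10A, known from sensory neurons, were both 241 kb from the nearest peak, and SCN7A, which is not gated by voltage in the usual way, was 201 kb away. The alpha2delta gene CACNA2D3 was 326 kb from its nearest peak. Distances for the remaining genes in the plot of nearest peaks lay between 38.1 and 177 kb, apart from those of SCN1A, SCN2A, SCN3A and SCN4B. Those of SCN1A and SCN4B are given below.

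For CACNA1A, which encodes the P/Q-type pore of synaptic terminals, the result depends on the gene model. RefSeq places its ends at 13206442 and 13506479 on chromosome 19, and the nearest peak by that model was 38.6 kb below it. The study's own peak annotation used a longer CACNA1A transcript, whose start lies beside the peak from 13633044 to 13633330. That peak was enriched 11.1-fold at a −log10 q of 16.7 with 22 reads over a background of 1.04, and was 127 kb above the RefSeq gene. It was singled out after its values were seen and is not counted among the 13.

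Many of the sodium channel alpha genes lie in clusters. On chromosome 2, SCN3A, SCN2A, SCN1A, SCN9A and SCN7A span 1.41 Mb from 165087526 to 166494249, and 1 peak lay in that span. This peak, from 165953727 to 165954069, was enriched 10.1-fold at a −log10 q of 19.7 with 30 reads, and its summit lay 79 bp upstream of the start of TTC21B, a cilium gene between SCN2A and SCN1A. It was 30.6 kb from SCN1A and lay in none of the SCN genes. A cluster on chromosome 3 holds 3 further alpha genes, SCN10A and SCN11A among them, and no peak lay in its span. SCN11A, another alpha subunit of sensory neurons, was 96.6 kb from its nearest peak. SCN8A, which encodes the main alpha subunit of mature axons, had its nearest peak 53.7 kb away (14-fold, 32 reads).

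The gamma genes form similar clusters. CACNG5, CACNG4 and CACNG1 on chromosome 17 span 0.222 Mb, in which the CACNG4 peak was the only one, and the next peaks were 1.27 Mb below and 0.31 Mb above. CACNG7, CACNG8 and CACNG6 on chromosome 19 span 0.103 Mb without a peak, and the nearest peak, 41.6 kb below CACNG7, lay in MYADM. SCN4B and SCN2B are neighbours on chromosome 11, and the SCN2B start peak was 23.8 kb from SCN4B.

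Other ion channel families gave like counts. Of 96 potassium channel genes, 24 carried a peak (25%, exact 95% limits 16.7% and 34.9%), where genes of like length would give 23.1. Of 48 genes for glutamate and GABA receptors, 10 carried a peak (20.8%, limits 10.5% and 35.0%), where length would give 14.1. Both intervals overlap that of the calcium and sodium channel genes, and the median fold enrichments were 7.23 and 8.13. These differences were not tested.

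Genes whose products bind or regulate these channels were taken as a further list. A peak was found at 13 of the 34 (38.2%, 95% exact Clopper-Pearson interval 22.2% to 56.4%), where genes of like length would give 9.13. The highest was at SPTBN4 (18.8-fold, 38 reads), which encodes the beta-IV spectrin that anchors sodium channels at the axon initial segment. The partner ANK2, an ankyrin, had a peak of 9.57-fold, and no peak was called at ANK3, the ankyrin of the initial segment. The calmodulin genes CALM2 and CALM3 had peaks of 6.12-fold and 9.70-fold. Calmodulin is the calcium sensor of both channel families and has many other partners. Of the calmodulin-dependent kinase genes, CAMK2D had the highest (10.4-fold). RIMBP2, which links calcium channels to the release machinery, had 8.91-fold and FGF12, an intracellular modulator of sodium channels, 8.20-fold. UNC80, a subunit of the sodium leak channel complex, had a peak of 7.71-fold, whereas no peak was called at the pore gene NALCN. The share of this list was above its value from length, and its interval includes that value.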

How the data were processed

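The authors made the peak list from 1 NeuroD1 ChIP library of IMR-32 cells. The submitters' processing notes list hg38, BWA 0.7.17 and MACS2 2.2.7, with no role given, whereas the deposited peak names read macs3. Which control and which q threshold were used is not given in the sources used here. The deposited fold enrichment is a ratio of ChIP pileup to local background at the summit, with 1 added to each. The deposited list also gives −log10 p and −log10 q, from a Poisson p-value and its q-value, and the deposited score is 10 times the −log10 q cut to a whole number. The score was not used. The depth of the library is unknown.

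Peaks were matched to RefSeq genes of GRCh38.p14, the build the labels name, by any base in the gene or 3 kb beside it. All 40 channel genes by the symbol rule were kept in the counts, with SCNN1 genes left out, and the values of some genes are not reported here. Length was taken into account by 10 classes of equal gene number. ChIP reads and background were solved from fold enrichment and −log10 p with the Poisson formula of MACS. The weight of 1 read (0.98) came from the 24 distinct summit values that had a single solution. At each summit the solution closest to a whole read was taken, which favours a close fit, and 100% of summits then lay within 0.02 of one. At the 7.23-fold peaks of CACNA1D and CACNA2D1 a second solution also lay within 0.02 (0.00378, against 0.000161 for the one taken). Their 14 reads are therefore less certain than the Poisson limits show. Overlap, length classes and solver were tested on simulated data. Starts and their strand came from a list drawn from RefSeq, with 35116 starts on 23 chromosomes. This list does not hold every gene or every start, and 14 of the 40 channel genes are missing from it. Shares of peaks near starts were computed over the 5995 peaks on these chromosomes. Intervals at 95% are exact Clopper-Pearson for shares of genes and exact Poisson for read numbers. That of the median fold enrichment was taken from the ranked peaks. With 1 library no test was made.

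The members, the lists and the comparisons were chosen with earlier results of these data known. Of the list of associated genes, at most 8 by fold enrichment were to be named, and CALM2 and the genes without a peak were picked for naming with their values in view. A planned E-box search under the summits was not run, since no genome sequence was used here. Computations used scipy 1.17.1, pandas 2.3.3 and numpy 2.4.6 under Python 3.11.15, and plots matplotlib 3.10.9.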

Additional observations from a re-analysis of the deposited data

How the results depend on the processing

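The number of channel genes with a peak, 8, was between 7 and 9. It was 7 with a −log10 q of at least 5 and when enrichment had to reach 5-fold, both without CACNG4, and 9 with 10 kb in place of 3 kb, which added CACNB4. It was 8 with 1 kb, with the gene body alone, when the summit or most of the peak had to lie in the window, and when each peak was given only to the gene whose end was closest. The 13 peaks numbered 10 to 14. The number expected from gene length, 11.3, was 9.16 to 12.3 and lay above the observed number under each alternative for which it was computed, which leaves out the one that gave each peak to the closest gene end. It was 11.5 with 20 classes and 11.6 with the 200 genes nearest in length. The median fold enrichment, 7.23, was 7.22 to 7.47. The 3 genes with a peak at the start became 2 with a −log10 q of at least 5, without CACNA2D1. The E-box alternatives were not run. No paired analysis was possible because a single ChIP library was used. The 11 to 32 reads at the channel summits limit any ranking among them, and a gene without a called peak may hold sites that were not detectable at this depth.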
